A study of Mus musculus with 12 samples.

Results

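Cholesterol handling in gonadal white adipose tissue (GWAT) was followed through 8 genes of the 55281 in the count table. They were chosen by symbol, with no measured value in the rule, but with earlier results of these data known. Srebf2, Hmgcs1, Sqle and Insig1 stand for cholesterol synthesis and its control. Abca1, Abcg1, Soat1 and Apoe stand for efflux and storage. All 8 passed the filter on low counts and were tested among 18427 genes. The libraries come from male mice with floxed Hoip (Rnf31), the gene of HOIP, a subunit of the ligase that makes linear ubiquitin chains. Littermates without Cre (Hoip fl/fl AdipoQ.Cre-) are called WT, and mice with Cre (Hoip fl/fl AdipoQ.Cre+) are called HoipA-KO. Both genotypes carry the floxed alleles, and Cre is driven by adiponectin, so the deletion is aimed at mature adipocytes and not at the other cells of the tissue. The mice ate a control diet with 14% fat (CD) or a high-fat diet with 60% fat (HFD) for 16 weeks from 6 weeks of age and were 22 to 24 weeks old at harvest. Each library holds RNA pooled from 3 mice, and each of the 4 groups, WT CD, WT HFD, HoipA-KO CD and HoipA-KO HFD, has 3 libraries.

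Cells hold their free cholesterol within narrow limits. When sterols in the endoplasmic reticulum are low, the transcription factor SREBP2 is released from its SCAP and INSIG partners and turns on genes of synthesis and uptake. When sterols are high, oxysterols activate the LXR receptors, which turn on the exporters ABCA1 and ABCG1 and apolipoprotein E, while SOAT1 esterifies surplus cholesterol for storage in droplets. Adipocytes keep much unesterified cholesterol around their lipid droplet, and macrophages that clear dying adipocytes take up large amounts of lipid.

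Total estimated counts were 30513446 to 60540225 per library, so that 3 counts, taken as the floor of a library, equal 0.0496 to 0.0983 CPM, the counts scaled to the size of each library. Rnf31 itself, counted over the whole gene and over all cells of the tissue, was at 12.01 to 20.9 CPM in the WT libraries and 17.7 to 22.5 CPM in the HoipA-KO libraries, and it differed by a log2 fold change of -0.08 (SE 0.14, adjusted p = 0.654) on CD and 0.13 (SE 0.12, adjusted p = 0.491) on HFD. Summed levels of 10 adipocyte markers lay between 12115 and 63444 CPM, and none of the 10 was at 0 in any library. WT CD replicate 3 held 9440 CPM of 8 male germ cell markers and WT CD replicate 2 held 15636 CPM of 10 epididymal markers, and they also had the highest sums of 6 steroidogenic cell markers, at 368 and 166 CPM against 3.79 to 13.8 CPM elsewhere. HoipA-KO HFD replicate 1 had 1311 CPM of the epididymal markers and the other 10 libraries at most 110 CPM. The germ cell markers summed to 338 CPM in WT CD replicate 2 and to at most 17.8 CPM in the libraries other than WT CD replicates 2 and 3. The study's own comparisons leave out WT CD replicate 3, and the fits here do the same, with 11 libraries and 2 in the WT CD group. Values over all 12 libraries are given beside them where they change a call of a gene named here.

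Of the 4 genes of synthesis and its control, Hmgcs1 and Insig1 rose in WT mice on HFD, and on that diet both were lower in HoipA-KO mice than in WT. Abcg1 and Soat1 rose in HoipA-KO tissue on CD, 5.92-fold and 8.99-fold, and Srebf2 was 2.00-fold higher there. Abca1, Sqle and Apoe passed the test in none of the comparisons in the edgeR fit of 11 libraries. Some other fits called Abca1 in WT on HFD, Apoe between genotypes on HFD or on CD, and Sqle between genotypes on CD. The plot of the 8 genes by library shows these levels.

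**Figure D1:**
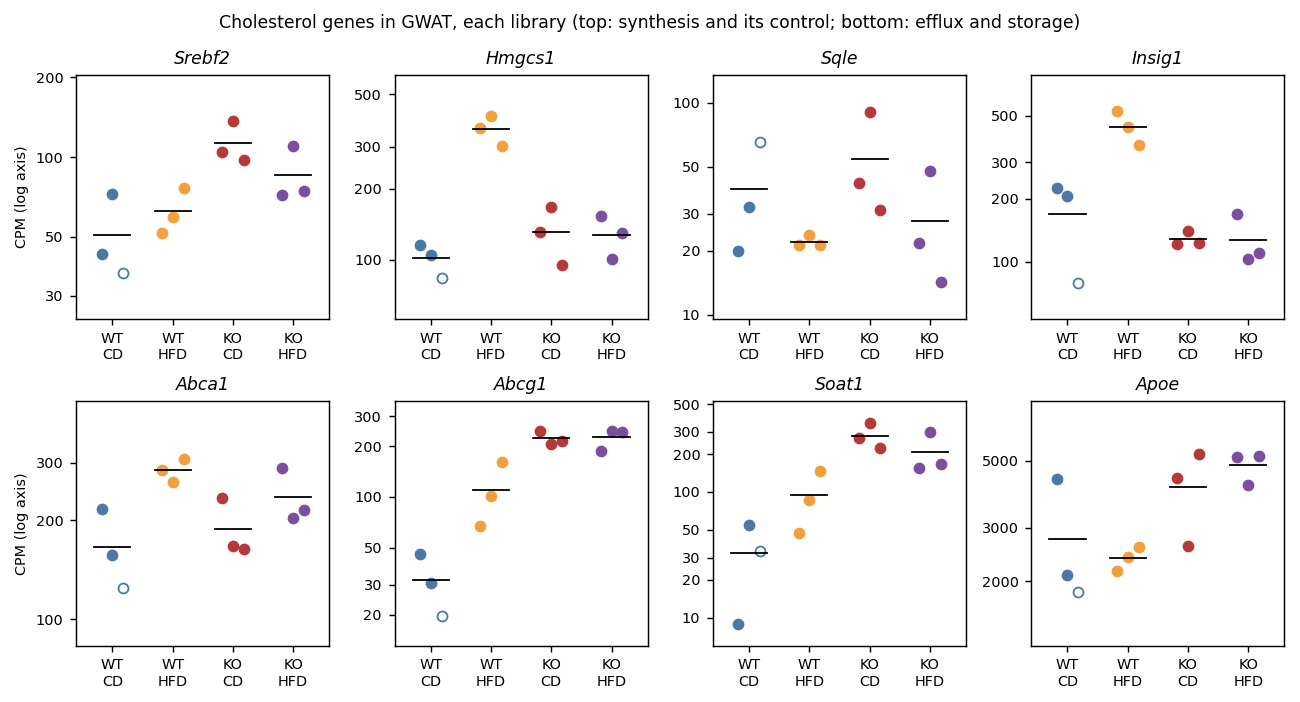
Levels of the 8 genes in each of the 12 libraries, as CPM on a log axis, in WT and HoipA-KO (KO) mice on CD or HFD. Each point is 1 library of 3 pooled mice, the open point is WT CD replicate 3, and the line is the mean of 3 libraries. Hmgcs1 and Insig1 stand highest in WT HFD, and Abcg1 and Soat1 stand highest in the HoipA-KO groups.

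Srebf2 (chromosome 15, 82147181 to 82205379, + strand, GRCm38) encodes SREBP2, the master activator of the pathway. It was at 43.0, 72.6 and 36.7 CPM in WT CD replicates 1 to 3 and at 104, 136 and 97.4 CPM in HoipA-KO CD. WT HFD held 51.9, 59.7 and 76.3 CPM and HoipA-KO HFD 72.2, 110 and 74.2 CPM. The HoipA-KO CD libraries all lay above the WT CD libraries, while the ranges on HFD overlapped. On CD the log2 fold change of HoipA-KO over WT was 1.00 (SE 0.31, adjusted p = 0.0288), and with all 12 libraries it was 1.12 (SE 0.28, adjusted p = 0.0143). The call was lost in 7 of the 11 fits that left out 1 library, at adjusted p of 0.0501 to 0.143 and log2 fold changes of 0.65 to 1.06, namely without WT CD replicate 1, WT HFD replicate 3, any HoipA-KO CD library, or HoipA-KO HFD replicate 1 or 3. On HFD the difference was 0.47 (SE 0.27, adjusted p = 0.253), with 0.23 without HoipA-KO HFD replicate 2 and 0.65 without WT HFD replicate 3.

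Insig1 (chromosome 5, 28071363 to 28078662, + strand) encodes the endoplasmic reticulum protein that holds back SCAP and SREBP when sterols are plentiful, and its own transcription is driven by SREBP. WT HFD libraries held 524, 441 and 362 CPM, against 225, 205 and 79.8 CPM in WT CD, 122, 140 and 123 CPM in HoipA-KO CD and 170, 104 and 111 CPM in HoipA-KO HFD. All WT HFD libraries lay above the libraries of the other groups. HFD raised Insig1 in WT by 1.04 log2 (SE 0.24, adjusted p = 0.0223; all 12 libraries 1.36, SE 0.34, adjusted p = 0.0297). The rise was not called without WT CD replicate 2, WT HFD replicate 1 or WT HFD replicate 2, at adjusted p of 0.0509 to 0.0974 and log2 fold changes of 0.90 to 1.05. In HoipA-KO against WT on HFD it fell by 1.78 on the log2 scale (SE 0.22, adjusted p = 0.00803), and it stayed called over all 12 libraries (-1.79, SE 0.35, adjusted p = 0.0358) and in each of the 11 fits without 1 library. On CD Insig1 fell by 0.71 on the log2 scale in HoipA-KO (SE 0.23, adjusted p = 0.0363), but this rested on leaving out the low WT CD replicate 3: over all 12 libraries the value was -0.43 (SE 0.34, adjusted p = 0.335). Within the 11 libraries the call was lost without WT CD replicate 1 or 2, WT HFD replicate 2, or HoipA-KO CD replicate 1 or 2, at adjusted p of 0.0510 to 0.101 and log2 fold changes of -0.80 to -0.66.

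Hmgcs1 (chromosome 13, 119690379 to 119708260, + strand) encodes cytosolic HMG-CoA synthase, an early enzyme of the pathway. WT HFD held 360, 405 and 303 CPM. The other groups were lower and close to each other, with 116, 105 and 84.0 CPM in WT CD, 130, 167 and 95.3 CPM in HoipA-KO CD and 153, 101 and 129 CPM in HoipA-KO HFD. WT HFD did not overlap with any other group. HFD raised Hmgcs1 in WT by 1.69 log2 (SE 0.27, adjusted p = 0.00695; all 12 libraries 1.77, SE 0.24, adjusted p = 0.00181), which is 3.22-fold. HoipA-KO fell by 1.46 on the log2 scale against WT on HFD (SE 0.23, adjusted p = 0.0105; all 12 libraries -1.47, SE 0.24, adjusted p = 0.0294) and differed by 0.28 on CD (SE 0.26, adjusted p = 0.413). All 3 diet or genotype contrasts kept their direction in every fit without 1 library, and both calls were kept there.

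Sqle (chromosome 15, 59315077 to 59331192, + strand) encodes squalene epoxidase, which carries out the first oxygenation of the pathway. WT CD held 20.0, 32.3 and 65.2 CPM, WT HFD 21.4, 23.8 and 21.3 CPM, HoipA-KO CD 41.8, 90.5 and 31.3 CPM, and HoipA-KO HFD 21.8, 47.4 and 14.3 CPM. The groups overlapped between the genotypes on each diet and between the diets in each genotype. The difference of HoipA-KO from WT was 1.10 log2 on CD (SE 0.56, adjusted p = 0.147; all 12 libraries 0.42, SE 0.55, adjusted p = 0.568) and 0.35 on HFD (SE 0.49, adjusted p = 0.645). On CD it was 0.49 without HoipA-KO CD replicate 2 and 1.51 without WT CD replicate 2, and on HFD it turned to -0.29 without HoipA-KO HFD replicate 2. With the replicate number as a block in edgeR, the difference on CD was called, at 1.24 (SE 0.33, adjusted p = 0.0274). The highest WT CD value was in replicate 3, the library with the germ cell transcripts, whose part in it was not tested.

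Since Srebf2, Insig1 and Hmgcs1 are textbook targets of the SREBP pathway, their promoters are shown here for their letters. Of the 8 genes, 6 have an entry among the RefSeq promoters of build GRCm38.p6. The 250 bases before the start were searched on both strands for the sterol regulatory element core TCACNCCA and for CCAAT, the box bound by NF-Y, a factor that acts beside SREBP. Capitals mark both motifs, and a CCAAT box on the opposite strand reads ATTGG. The stretch printed ends where the annotated first exon begins, or at the RefSeq start.

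Srebf2, chr15:82147019-82147180, + strand: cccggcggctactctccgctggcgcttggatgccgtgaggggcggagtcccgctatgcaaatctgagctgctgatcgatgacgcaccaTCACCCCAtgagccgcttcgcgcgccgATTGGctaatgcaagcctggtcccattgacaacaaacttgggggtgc
Hmgcs1, chr13:119690101-119690350, + strand: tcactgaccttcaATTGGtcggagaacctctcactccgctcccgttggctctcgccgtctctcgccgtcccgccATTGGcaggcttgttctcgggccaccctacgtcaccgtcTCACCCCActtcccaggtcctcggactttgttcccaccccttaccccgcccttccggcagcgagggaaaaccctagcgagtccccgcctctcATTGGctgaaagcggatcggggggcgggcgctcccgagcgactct
Insig1, chr5:28071162-28071362, + strand: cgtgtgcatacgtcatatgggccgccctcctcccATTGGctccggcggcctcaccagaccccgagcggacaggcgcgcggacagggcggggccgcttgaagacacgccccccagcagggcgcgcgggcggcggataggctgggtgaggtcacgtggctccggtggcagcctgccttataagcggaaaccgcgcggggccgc

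The core TCACCCCA lies at bases 89 to 96 of the Srebf2 stretch and at bases 114 to 121 of the Hmgcs1 stretch, counted from 1 at the left end, and the Insig1 window holds no match. A CCAAT box on the opposite strand begins at base 116 of the Srebf2 stretch, at base 35 of the Insig1 stretch, and at bases 14, 75 and 206 of the Hmgcs1 stretch. Of 32851 promoter windows of the same length, 3.67% hold the TCACNCCA core and 33.8% hold a CCAAT box. The RefSeq windows of Abca1 and Soat1 hold no core, and 1 of the 3 Apoe windows holds it. The LXR DR4 element, a direct repeat with a spacer of 4 bases, was searched as RGKTYA, any 4 bases and RGKTYA. Here R is A or G, K is G or T and Y is C or T. These letters were found in none of the windows of these 6 genes and in 0.195% of all windows. An element with other letters or outside the windows would be missed, so the search cannot tell whether a gene lacks one. A match is a description of letters, and factor binding was not measured.

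Abcg1 (chromosome 17, 31057675 to 31117988, + strand) encodes the exporter that passes cholesterol to mature HDL. It was at 46.1, 30.9 and 19.6 CPM in WT CD, at 66.7, 101 and 160 CPM in WT HFD, at 246, 207 and 214 CPM in HoipA-KO CD and at 186, 247 and 241 CPM in HoipA-KO HFD. The ranges of WT CD, WT HFD and the HoipA-KO groups did not overlap, while those of the 2 HoipA-KO groups did. On CD Abcg1 was 2.56 log2 higher in HoipA-KO (SE 0.36, adjusted p = 0.000918; all 12 libraries 2.76, SE 0.36, adjusted p = 0.000422), and this call was kept in each fit without 1 library. HFD raised Abcg1 in WT by 1.51 log2 (SE 0.35, adjusted p = 0.0216; all 12 libraries 1.74, SE 0.35, adjusted p = 0.0112), which was not called without WT CD replicate 2, WT HFD replicate 2 or WT HFD replicate 3, at adjusted p of 0.0503 to 0.121 and log2 fold changes of 1.03 to 1.57. On HFD HoipA-KO was 1.06 log2 above WT (SE 0.30, adjusted p = 0.0471), but the value over all 12 libraries, 1.04 (SE 0.34), had an adjusted p of 0.115. That call was also lost in 7 of the 11 fits without 1 library, at adjusted p of 0.0634 to 0.148 and log2 fold changes of 0.81 to 1.06, namely without WT HFD replicate 1 or 2, any HoipA-KO CD library, or HoipA-KO HFD replicate 2 or 3.

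Soat1 (chromosome 1, 156424525 to 156474331, - strand) encodes the enzyme that esterifies cholesterol in the endoplasmic reticulum. The 3 WT CD libraries were far apart at 9.01, 54.9 and 34.0 CPM. WT HFD held 47.0, 86.2 and 148 CPM, HoipA-KO CD 268, 353 and 222 CPM, and HoipA-KO HFD 156, 301 and 166 CPM. Every HoipA-KO library lay above every WT library. On CD the rise was 3.17 log2 (SE 0.78, adjusted p = 0.0118; all 12 libraries 3.06, SE 0.63, adjusted p = 0.00597). It was called in each fit without 1 library, but its size depended on the WT CD library kept, with 2.37 without WT CD replicate 1 and 5.01 without WT CD replicate 2. On HFD the difference between HoipA-KO and WT was 1.17 log2 (SE 0.62, adjusted p = 0.222), with 0.79 without HoipA-KO HFD replicate 2 and 1.68 without WT HFD replicate 3. The diet difference in WT was 1.55 (SE 0.72, adjusted p = 0.171), and it was called only without WT CD replicate 2, at 3.39 with an adjusted p of 0.0423.

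Abca1 (chromosome 4, 53030787 to 53159895, - strand) encodes the exporter that loads lipid-poor apolipoprotein A-I. It held 217, 157 and 125 CPM in WT CD, 285, 263 and 308 CPM in WT HFD, 233, 167 and 164 CPM in HoipA-KO CD and 288, 204 and 216 CPM in HoipA-KO HFD. WT HFD lay above WT CD without overlap, and the 2 genotypes overlapped on either diet. HoipA-KO differed from WT by 0.04 log2 on CD (SE 0.22, adjusted p = 0.895) and by -0.26 on HFD (SE 0.20, adjusted p = 0.387). The diet difference in WT, 0.62 (SE 0.23, adjusted p = 0.0926), passed the threshold when WT CD replicate 1 was left out, at 0.87 with an adjusted p of 0.0438, and by DESeq2, at 0.57 with an adjusted p of 0.0451.

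Apoe (chromosome 7, 19696109 to 19699188, - strand) encodes the apolipoprotein that accepts effluxed cholesterol and binds lipoprotein receptors, and macrophages and adipocytes both secrete it. WT CD replicate 1 was at 4354 CPM, within the HoipA-KO range, while WT CD replicates 2 and 3 were at 2090 and 1837 CPM. WT HFD held 2164, 2394 and 2593 CPM, HoipA-KO CD 4382, 2608 and 5249 CPM, and HoipA-KO HFD 5157, 4138 and 5163 CPM. On HFD the genotypes did not overlap, and the difference was 1.03 log2 (SE 0.32, adjusted p = 0.0617; all 12 libraries 1.02, SE 0.37, adjusted p = 0.151). It passed the threshold without WT CD replicate 1 or without WT CD replicate 2, at adjusted p of 0.0189 to 0.0290 and log2 fold changes of 1.02 to 1.03. It was also called by DESeq2, in the fit of only the 2 HFD groups and among genes with at least 10 counts in every library, at 1.03 to 1.05 with adjusted p of 0.0037, 0.018 and 0.0483. On CD the difference was 0.37 (SE 0.35, adjusted p = 0.433), and it was called in the edgeR fit with WT CD replicates 2 and 3, at 1.04 (adjusted p = 0.0249).

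Divided by exon length, Apoe stood first in every group, with group medians of 977 to 2412 CPM per kilobase, and Insig1 stood second by its median. In WT HFD the order of medians was Apoe, Insig1 at 143, Hmgcs1 at 78.3, Abca1 at 27.5, Abcg1 at 13.8, Soat1 at 8.81, Srebf2 at 8.31 and Sqle at 3.85 CPM per kilobase. There the ranges of Abcg1, Soat1 and Srebf2 overlapped, and the ranges of their neighbours did not. In HoipA-KO CD Abcg1 (29.4) and Soat1 (27.4) stood beside Hmgcs1 (28.4) and Insig1 (39.8), and Abca1 (16.1), Srebf2 (14.5) and Sqle (7.54) followed. Ranges of Abcg1, Hmgcs1 and Soat1 overlapped in that group, as did those of Abca1, Srebf2 and Sqle, and the range of Abca1 (15.8 to 22.5) also overlapped that of Hmgcs1 (20.8 to 36.3).

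By count, HoipA-KO against WT on CD called 4 of the 8 genes, with Srebf2, Abcg1 and Soat1 higher and Insig1 lower, where 37.7% of all tested genes were called, 18.9% higher and 18.8% lower. Over all 12 libraries Srebf2, Abcg1 and Soat1 were called, against a background of 34.7%. Without WT CD replicate 2, which leaves 1 WT CD library that is assumed to vary like the other groups, the same 3 genes were called, against 31.7% of all genes. On HFD 3 of the 8 were called, with Abcg1 higher and Hmgcs1 and Insig1 lower, against 11.8% of all genes, 4.2% higher and 7.62% lower, and over all 12 libraries Hmgcs1 and Insig1 were called against 2.78%. With library size in place of TMM, the called genes on HFD split into 1279 higher and 1133 lower in place of 774 and 1405, and the 3 member calls were the same. HFD against CD in WT called Hmgcs1, Insig1 and Abcg1, all higher, both over 11 libraries, where 14.8% of genes were called, 9.35% higher and 5.47% lower, and over 12, where 15% were. Under library size alone that split was 2108 higher and 677 lower in place of 1723 and 1008. A fit on the 2 WT groups alone called 0 of the 8 in this comparison, 0 of all genes included. The comparison of HoipA-KO with WT on CD and that of HFD with CD in WT share the WT CD libraries, so the values that both give are not independent.

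**Figure D2:**
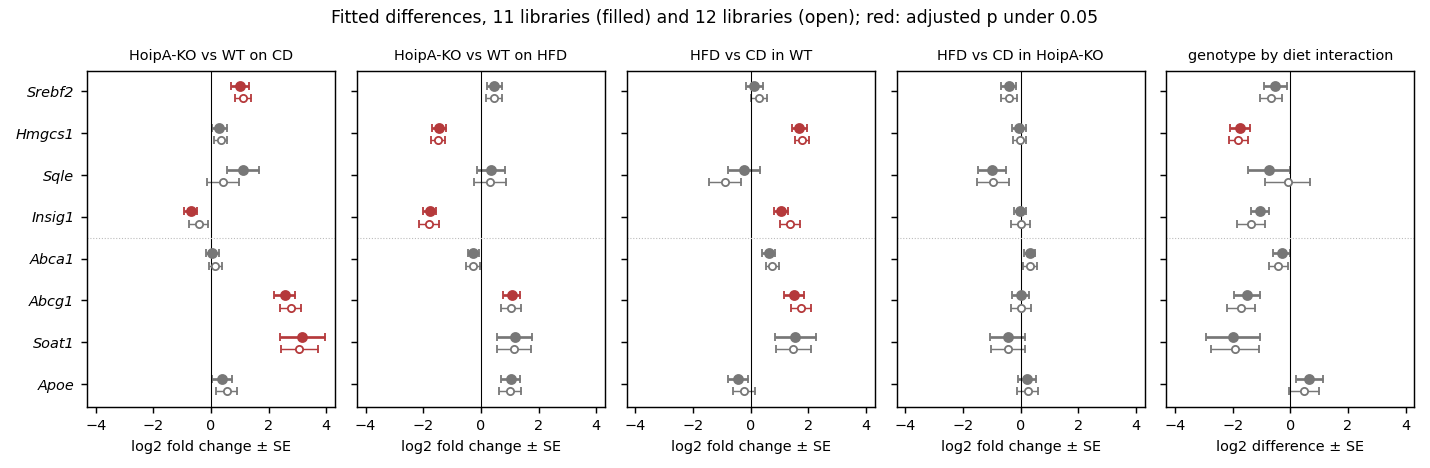
Fitted log2 differences of the 8 genes with their SE in the 5 comparisons, for 11 libraries (filled) and 12 libraries (open), with adjusted p under 0.05 in red. Abcg1 and Soat1 lie far to the right on CD at 2.56 and 3.17, and Hmgcs1 and Insig1 lie to the left on HFD at -1.46 and -1.78.

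In HoipA-KO mice HFD against CD called none of the 8 genes, and edgeR called 0 of 18427 genes in all (0%, and 0% over 12 libraries). At an unadjusted p under 0.05 there were 415 genes, none of the 8 among them, and DESeq2 called 7 genes, again without any of the 8. Log2 differences of the members ran from -0.99 for Sqle to 0.31 for Abca1, with -0.02 (SE 0.21) for Insig1 and -0.05 (SE 0.23) for Hmgcs1. The test of the genotype effect on HFD minus that on CD called Hmgcs1, at -1.74 log2 (SE 0.35, adjusted p = 0.0320; all 12 libraries -1.81, SE 0.33, adjusted p = 0.0204), where 3.91% of all genes were called over 11 libraries and 2.78% over 12. The Hmgcs1 value stayed between -1.83 and -1.50 in the fits without 1 library, but 8 of these 11 fits put its adjusted p at 0.0573 to 0.0987, namely those without WT CD replicate 2, WT HFD replicate 2 or 3, any HoipA-KO CD library, or HoipA-KO HFD replicate 1 or 3. Insig1 had -1.07 (SE 0.32, adjusted p = 0.0927), Abcg1 -1.50 (SE 0.45, adjusted p = 0.0927) and Soat1 -2.0 (SE 0.94, adjusted p = 0.239) in the same test. Abcg1 passed it without WT CD replicate 1 or WT HFD replicate 1, at -1.82 and -1.76 with adjusted p of 0.0279 to 0.0419.

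The rest of the pathway was read from 5 lists that together hold 71 genes, members included, all tested. Their counts stand beside the shares of all tested genes that were called, 37.7% on CD, 11.8% on HFD and 14.8% for HFD in WT. Counts by DESeq2 stand beside 44.3% of all genes on CD and 24.2% on HFD. Counts at an unadjusted p under 0.05 in edgeR stand beside 8921 of 18427 genes on CD and 5812 on HFD. On CD the 21 synthesis enzymes had 1 gene called higher and 6 lower in HoipA-KO, with a median log2 fold change of -0.13 beside -0.06 over all genes. Acat2, which makes acetoacetyl-CoA, fell by 2.83 on the log2 scale (SE 0.35, adjusted p = 0.000565). Fdft1, squalene synthase, fell by 1.65 (SE 0.20, adjusted p = 0.000565), Tm7sf2, a sterol reductase, by 2.15 (SE 0.62, adjusted p = 0.0221) and Sc5d, a late desaturase, by 1.04 (SE 0.28, adjusted p = 0.0183). Dhcr7, the last reductase of the pathway, was the 1 called higher, at 1.19, and is named after its value was seen. Over all 12 libraries 3 enzymes were higher and 3 lower on CD, and Tm7sf2 and Sc5d were not called (adjusted p = 0.0783 and 0.0514). Tm7sf2 was at 39.7 CPM in WT CD replicate 2, the library with the epididymal transcripts, and at 8.11 and 4.75 CPM in WT CD replicates 1 and 3, and without replicate 2 its value was -0.57 and not called (adjusted p = 0.440). Acat2 stood out in that library too, at 283 CPM against 108 and 37.0 CPM, and Fdft1 stood out in WT CD replicate 3, at 269 CPM against 93.9 and 96.2 CPM. What part the transcripts of other tissues had in these values was not tested. The Sc5d call was lost without WT CD replicate 1 or HoipA-KO CD replicate 1, at log2 fold changes of -1.003 to -0.65, and that of Tm7sf2 also without HoipA-KO CD replicate 1 or 2.

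On HFD the synthesis enzymes had 0 genes higher and 7 lower in HoipA-KO, with a median of -0.65 beside 0.06 over all genes. Over 12 libraries 4 were lower, namely Sc5d, Hmgcs1, Lss and Pmvk, of which Lss, lanosterol synthase, and Pmvk, phosphomevalonate kinase, are named after their values were seen. By DESeq2 10 were lower and 0 higher, where 24.2% of all genes were called. At an unadjusted p under 0.05 edgeR had 11 lower and 0 higher, where 5812 of all 18427 genes passed. Sc5d held 254, 226 and 176 CPM in WT HFD and 76.1, 45.3 and 51.5 CPM in HoipA-KO HFD, and it fell by 1.91 on the log2 scale (SE 0.27, adjusted p = 0.00871), a call kept in each fit without 1 library. Acat2 fell by 1.43 (SE 0.32, adjusted p = 0.0251; all 12 libraries adjusted p = 0.156) and Fdft1 by 0.70 (SE 0.19, adjusted p = 0.0404; all 12 libraries adjusted p = 0.318), and the calls were lost in 4 and 6 of the 11 fits without 1 library. In WT on HFD against CD the enzymes had 2 genes higher, Hmgcs1 and Dhcr7, and 2 lower, Acat2 and Fdft1, and the Acat2 call, at -1.38, was lost without WT CD replicate 2 or any WT HFD library, at -1.48 to -0.51, and over all 12 libraries, at -0.95 (adjusted p = 0.233).

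**Figure D3:**
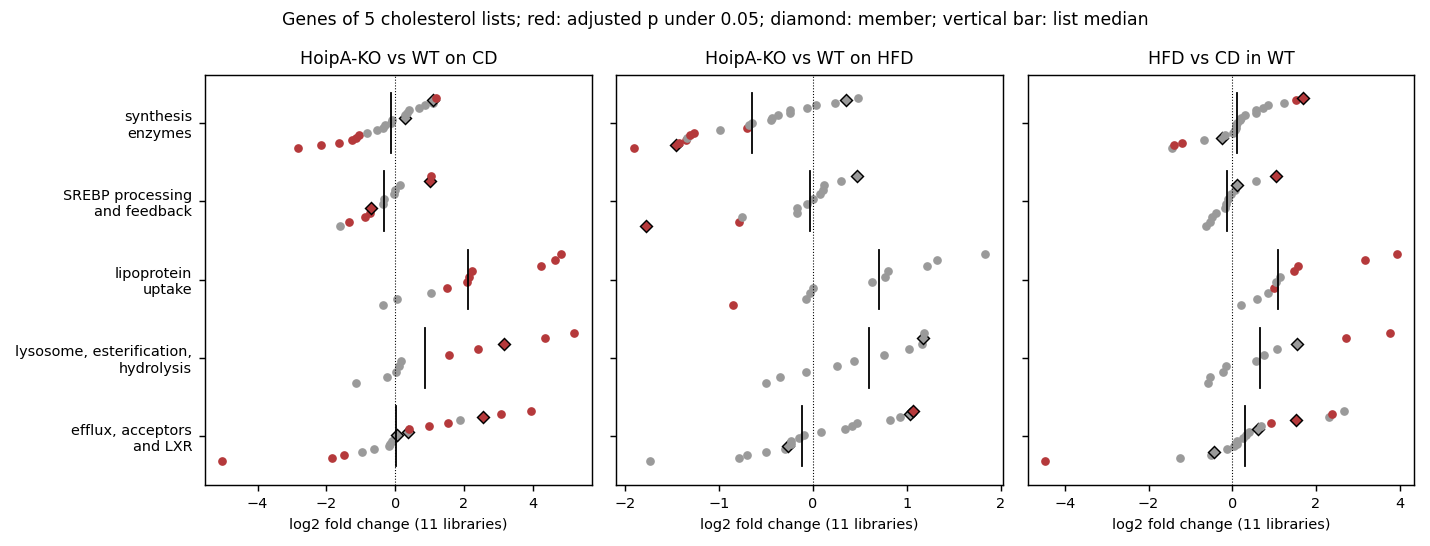
Log2 fold changes of the 71 genes of 5 cholesterol lists in 3 comparisons over 11 libraries. Red points have an adjusted p under 0.05, diamonds are the 8 members, and the upright bars are list medians. On CD the uptake list has its median at 2.13, and on HFD the synthesis list has its median at -0.65.

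Of the 12 genes for SREBP processing and feedback, 2 were called higher and 4 lower on CD, the members Srebf2 and Insig1 among them. Mbtps2, the protease that frees SREBP in the Golgi, was 1.05 log2 higher (SE 0.35, adjusted p = 0.0397). Srebf1, the sister factor that favours fatty acid synthesis, fell by 1.35 (SE 0.24, adjusted p = 0.00261) and Insig2 by 0.73 (SE 0.24, adjusted p = 0.0393). Mylip, an LXR target, fell by 0.89 (SE 0.30, adjusted p = 0.0412; all 12 libraries -0.56, adjusted p = 0.302). Scap, the escort of SREBP, was at -0.31 (SE 0.27, adjusted p = 0.383). On HFD 2 of the 12 were lower, Insig1 and Srebf1, the latter at -0.79 (SE 0.22, adjusted p = 0.0479; all 12 libraries adjusted p = 0.236). The calls of Mbtps2, Insig2 and Mylip on CD and of Srebf1 on HFD were lost in 9, 6, 2 and 8 of the 11 fits without 1 library.

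Lipoprotein uptake, which no member covers, had 7 of 10 genes higher and 0 lower in HoipA-KO on CD, with a median of 2.13. DESeq2 and edgeR at an unadjusted p under 0.05 each had 8 higher and 0 lower. The scavenger receptor Msr1, at 5.07, 4.60 and 8.29 CPM in WT CD and 109, 154 and 92.7 CPM in HoipA-KO CD, rose by 4.65 log2 (SE 0.50, adjusted p = 0.000452). Olr1, also a scavenger receptor, rose by 4.82 log2 (SE 0.60, adjusted p = 0.000565). It was low in both groups, at 0.0974, 0.300 and 0.262 CPM in WT CD and 6.39, 5.80 and 4.71 CPM in HoipA-KO CD. WT CD replicate 1 held 4 counts of Olr1, near the floor. Lrp1, a receptor for apolipoprotein E particles, rose by 2.10 (SE 0.39, adjusted p = 0.00312) and Stab1, another scavenger receptor, by 2.24 (SE 0.32, adjusted p = 0.000968). Lrp8 rose by 4.25 (SE 1.04, adjusted p = 0.0112) over 11 libraries, but WT CD replicate 3 held 47.2 CPM of it, above the 8.57 to 19.3 CPM of HoipA-KO CD, and over all 12 libraries its value turned to -0.49 (adjusted p = 0.804). Cd36, a receptor for fatty acids and oxidised lipoproteins, was the most abundant of the list and was at 1.04 (SE 0.46, adjusted p = 0.103). In WT on HFD 5 of the 10 were higher, among them Lrp1, Stab1, Msr1 and Olr1 at 1.48, 1.56, 3.17 and 3.93, with Vldlr, a receptor of triglyceride-rich lipoproteins, as the fifth. The Lrp1 call there was lost in 5 of the 11 fits without 1 library, at 1.08 to 1.48, and that of Stab1 without WT CD replicate 2, at 1.32. On HFD HoipA-KO against WT had 0 higher and 1 lower, Vldlr at -0.86 (adjusted p = 0.0293; all 12 libraries adjusted p = 0.119), with 5 higher at an unadjusted p under 0.05 and 4 higher by DESeq2.

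The 10 genes for lysosomal release, esterification and ester hydrolysis had 5 higher and 0 lower on CD, and by DESeq2 5 higher and 1 lower. Nceh1, a neutral hydrolase of cholesteryl esters, went from 7.48, 10.1 and 8.22 CPM in WT CD to 284, 437 and 230 CPM in HoipA-KO CD, a rise of 5.21 log2 (SE 0.68, adjusted p = 0.000664). Lipa, the acid lipase of lysosomes, went from 59.3, 90.8 and 31.9 CPM to 1367, 2056 and 1047 CPM, a rise of 4.35 (SE 0.68, adjusted p = 0.00136). Npc1, which exports cholesterol from lysosomes, rose by 2.40 (SE 0.41, adjusted p = 0.00195), while Npc2, its soluble partner, was at -1.13 (SE 0.46, adjusted p = 0.0796), with 3196 CPM in WT CD replicate 2 alone and 320 to 893 CPM in the other CD libraries. The list's median was 0.87. In WT on HFD Lipa (2.72, SE 0.62, adjusted p = 0.0218) and Nceh1 (3.76, SE 0.63, adjusted p = 0.00738) were called higher. Lipa lost that call without WT CD replicate 1, WT CD replicate 2 or WT HFD replicate 3, at 2.00 to 3.07. On HFD between genotypes 0 of the 10 were called by edgeR, with 4 higher at an unadjusted p under 0.05 and 4 higher by DESeq2.

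Of the 18 genes for efflux, acceptors and LXR, 6 were higher and 3 lower on CD, with a median of 0.02. Pltp, which moves phospholipid between lipoproteins, rose from 149, 119 and 80.4 CPM to 1015, 1003 and 1287 CPM, by 3.07 log2 (SE 0.33, adjusted p = 0.000452), and in WT on HFD by 2.37 (SE 0.31, adjusted p = 0.00617). Nr1h3, LXR alpha, was at -0.10 (SE 0.27, adjusted p = 0.783) and Nr1h2, LXR beta, was 0.39 higher (SE 0.13, adjusted p = 0.0425), a call that was lost in 10 of the 11 fits without 1 library. Ch25h, which makes an oxysterol, was at 47.8 CPM in WT CD replicate 2 and at most 1.499 CPM in each other library, so its -5.02 on CD (SE 1.29, adjusted p = 0.0143) turned to 0.94 without that library, and over all 12 libraries it was -4.48 (adjusted p = 0.0544). Abcg8 was near the floor in WT CD replicates 1 and 2, at 0.0244 and 0.0214 CPM, against 0.142 to 0.701 CPM in HoipA-KO CD, and at 2.20 CPM in WT CD replicate 3, and its 3.94 over 11 libraries (adjusted p = 0.0094) turned to -1.06 over 12 (adjusted p = 0.542). On HFD between genotypes 1 of the 18 was higher, Abcg1, and 0 lower, with 6 higher and 2 lower at an unadjusted p under 0.05 and likewise by DESeq2. Over the 5 lists together the genotype comparison called 21 higher and 13 lower of 71 on CD, and 22 and 6 over 12 libraries. That is 47.9% of the listed genes beside 37.7% of all genes, and 39.4% beside 34.7% over 12 libraries. On HFD it called 1 higher and 10 lower, and 0 and 5 over 12 libraries, which is 15.5% beside 11.8% and 7.04% beside 2.78%. HFD in WT called 22.5% of the listed genes beside 14.8% of all genes.

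Markers of adipocytes and macrophages moved with the genotype, and those of macrophages also with diet in WT. HFD against CD called 1 of 10 adipocyte markers in WT, as lower. In HoipA-KO it called 0 markers of adipocytes, macrophages or lipid-associated macrophages. Of 10 adipocyte markers 9 were lower in HoipA-KO on CD and 9 on HFD, and their sum was 17521 to 63444 CPM in WT CD, 31539 to 39594 in WT HFD, 14454 to 14638 in HoipA-KO CD and 12115 to 14631 in HoipA-KO HFD. Of 10 macrophage markers 9 were higher in HoipA-KO on CD, 3 on HFD (over 12 libraries 0, with 7 of the adipocyte markers lower there), and 9 in WT on HFD, and their sum was 384 to 644, 1779 to 5309, 8729 to 11912 and 6480 to 10434 CPM in the same order, with no marker at 0. The 8 markers of lipid-associated macrophages were all higher in HoipA-KO on CD, with sums of 185 to 570 CPM in WT CD and 16535 to 22250 CPM in HoipA-KO CD. Of these 8, 6 were also called higher in WT on HFD, and 3 in HoipA-KO on HFD (over 12 libraries 7 and 0). Their sums were 1653 to 6583 CPM in WT HFD and 8111 to 20114 CPM in HoipA-KO HFD. Hepatocyte markers summed to 16.4 to 5418 CPM, highest in WT CD, and skeletal muscle markers to 2.69 to 146 CPM. The hepatocyte sum did not stand for its 6 markers alike. Only 4 of them were above 3 counts in WT CD replicates 1 and 2. Their median log2 fold change for HFD in WT was 2.10, with 0 called, although the sum was lower in WT HFD, at 156 to 1141 CPM. In bulk tissue fewer cells of a type and less RNA per cell cannot be told apart, and none of the 8 genes is a marker in these lists. The part of cell composition in the differences above was not tested.

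Ratios of 6 members to these sums, chosen after the values were seen, are given as values. Soat1 stood at 26.4 to 27.9 CPM per 1000 CPM of macrophage markers in WT HFD, 25.0 to 30.7 in HoipA-KO CD, 23.8 to 28.9 in HoipA-KO HFD and at 14.0, 117 and 88.7 in WT CD. Abcg1 stood at 30.2 to 37.5 in WT HFD, 17.4 to 28.2 in HoipA-KO CD, 23.7 to 34.5 in HoipA-KO HFD and 51.2 to 71.5 in WT CD. The ratios of Abca1 and Apoe to macrophage markers ran from 14.0 to 337 and from 219 to 6757 over the libraries. Against adipocyte markers Hmgcs1 stood at 9.49 to 10.2 CPM per 1000 CPM in WT HFD, 6.51 to 11.5 in HoipA-KO CD and 8.36 to 12.02 in HoipA-KO HFD, with 1.83, 3.91 and 4.79 in WT CD. Insig1 stood at 11.1 to 13.8 in WT HFD, 8.38 to 9.69 in HoipA-KO CD, 7.56 to 13.3 in HoipA-KO HFD and 3.55 to 7.63 in WT CD.

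**Figure D4:**
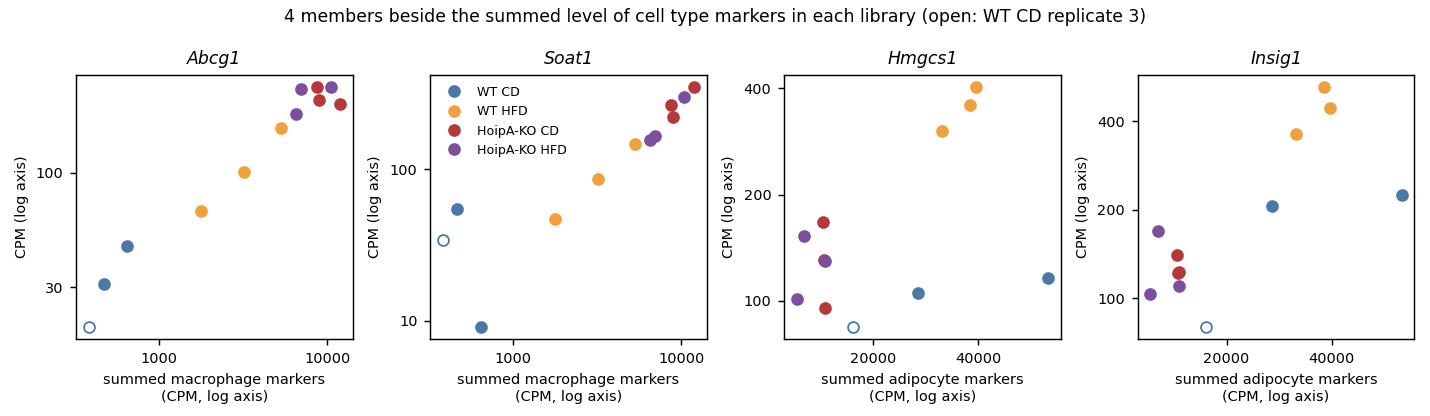
Levels of Abcg1 and Soat1 against summed macrophage markers, and of Hmgcs1 and Insig1 against summed adipocyte markers, 1 point per library, all axes log CPM and the open point WT CD replicate 3. WT HFD libraries hold the highest Hmgcs1 and Insig1, and the HoipA-KO libraries hold the most macrophage markers, 6480 to 11912 CPM.

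Efflux and storage set against synthesis gave 1 value per library, the mean log2 CPM of Abca1, Abcg1, Soat1 and Apoe minus that of Srebf2, Hmgcs1, Sqle and Insig1. Gene length is the same in each library, so these values compare libraries and not genes. They were 1.03, 0.86 and 0.81 in WT CD, 0.80, 1.11 and 1.68 in WT HFD, 2.48, 1.70 and 2.54 in HoipA-KO CD and 2.51, 2.54 and 2.88 in HoipA-KO HFD. All HoipA-KO libraries stood above all WT libraries, with WT HFD replicate 3 and HoipA-KO CD replicate 2 next to each other. WT HFD replicate 3 also had the most macrophage markers of its group, and HoipA-KO CD replicate 2 the most of all libraries. The mean log2 CPM of the synthesis genes was 6.85 to 6.98 in WT HFD and 5.98 to 6.40 in WT CD, and that of efflux and storage was 7.71 to 8.54 and 6.80 to 7.26. In HoipA-KO CD and HoipA-KO HFD the synthesis mean was 6.27 to 7.03 and 5.96 to 6.43. The efflux and storage mean was 8.72 to 8.99 and 8.83 to 8.97 there. Of the single genes only Hmgcs1, Insig1 and Abcg1 passed the edgeR test between WT HFD and WT CD over 11 libraries.

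By Pearson's r of log2(CPM + 1) over the 12 libraries, the tested genes most like Srebf2 were Eaf1, Tle4 and Clcn7 (r of 0.98, 0.98 and 0.97), and those most like Hmgcs1 were Ptgfr, Duox1 and Hdac9 (0.95, 0.95 and 0.95). Sqle was nearest to Rhbdd1, Samd8 and Tmem41b (0.94, 0.93 and 0.90), and Insig1 to Ccnd2, Lrpap1 and the lanosterol synthase gene Lss (0.98, 0.98 and 0.97). Abcg1 was nearest to P2rx4, Slc2a9 and Mknk1 (1.00, 0.99 and 0.99), Soat1 to Sirpb1b, Plcg2 and Cdk6 (0.99, 0.99 and 0.98), Abca1 to Rnf122, 2810430I11Rik and Gcnt2 (0.93, 0.93 and 0.92), and Apoe to Gm10676, Magef1 and Gm44645 (0.97, 0.95 and 0.95). These r values describe libraries that share group and cell composition.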

How the data were processed

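Polyadenylated RNA of GWAT was sequenced from 12 libraries, 3 per genotype and diet group, each of 3 pooled mice. Per the submitters' processing notes, reads were trimmed with Trim Galore 0.6.7, aligned with STAR 2.7.10a and quantified with Salmon 1.5.2, with GRCm38 as the build, while the study's methods name a human assembly. The identifiers are of mouse genes, and 51948 of 55281 are in GENCODE M21, from which positions and exon lengths were taken. The authors deposited estimated counts per gene, not normalized, for all genes and for protein-coding genes. Their tables of DESeq2 comparisons (fold changes and p-values) were not used.

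Estimated counts were rounded, filtered with filterByExpr, scaled by TMM and fitted in 1 model of the 4 groups with edgeR 4.0.16 (R 4.3.3). Quasi-likelihood tests with Benjamini-Hochberg adjustment over all tested genes were called under 0.05. The main fit leaves out WT CD replicate 3, as the study did. Standard errors are from the model, and log2 fold changes use a prior count of 0.125. CPM values are scaled by TMM over all 12 libraries. The biological coefficient of variation was 0.394 over 11 libraries and 0.514 over 12. The labels state that each library is a pool of its own, and n is the pool. Scripts were tested on simulated data.

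Members, pathway lists and markers were chosen with earlier results of these data known. The 8 members were always described. From each pathway list the 3 genes with the highest mean CPM and the 3 with the largest called change on CD were named, along with Scap, Insig2, Srebf1, Nr1h3, Nr1h2, Mylip, Npc1, Lipa and Nceh1, and for each member the 3 genes with the most similar profile. Some genes that this rule names are not reported here. Alternatives were RLE scaling, library size only, no filter, at least 10 counts in every library, all 12 libraries, other pairs of WT CD libraries, a replicate block, DESeq2 1.42.0, the protein-coding table, only the groups compared, and leaving out each library.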

Additional observations from a re-analysis of the deposited data

Results flagged for a closer look

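The genotype effect differed between diets, by the interaction test of edgeR with Benjamini-Hochberg adjustment, for 1 of the 8 members and for 5 other genes named here. The test called 7 of the 71 listed genes, these 6 among them, which is 9.86% beside 3.91% of all genes. Over 12 libraries it called 8 of the 71, which is 11.3% beside 2.78%. Hmgcs1 had a log2 difference of the 2 genotype effects (HFD minus CD) of -1.74 (SE 0.35, adjusted p = 0.0320), with an effect of 0.28 on CD and -1.46 on HFD. The genotype effect of the other 5 was larger on CD than on HFD. Nceh1, the cholesteryl ester hydrolase, had -4.05 (SE 0.76, adjusted p = 0.0281) and Msr1, a scavenger receptor, had -3.44 (SE 0.57, adjusted p = 0.0256). Olr1, another scavenger receptor, had -3.50 (SE 0.68, adjusted p = 0.0287), with at most 0.300 CPM in the WT CD libraries. Pltp, the phospholipid transfer protein, had -2.25 (SE 0.39, adjusted p = 0.0256). Dhcr7, the last reductase of synthesis, named after its value was seen, had -1.44 (SE 0.25, adjusted p = 0.0256), with an effect of 1.19 on CD and -0.25 on HFD. All 6 were also called over all 12 libraries, with adjusted p of 0.0168 for Dhcr7, 0.0204 for Hmgcs1, 0.0139 for Nceh1, 0.0201 for Msr1, 0.0271 for Olr1 and 0.0158 for Pltp. In the 11 fits without 1 library each, the calls of Hmgcs1, Nceh1 and Olr1 were lost in 8 and those of Msr1, Pltp and Dhcr7 in 7, at adjusted p of 0.0513 to 0.0987, and each of the 6 values stayed below 0. Where such fits kept at least 2 libraries per group, 1 to 999 of all genes were called for the interaction, against 721 in the main fit. Macrophage marker sums differed between genotypes by more on CD, 384 to 644 against 8729 to 11912 CPM, than on HFD, 1779 to 5309 against 6480 to 10434 CPM, and their part in these results was not tested.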

How the results depend on the processing

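With 2 or 3 pools per group and a biological coefficient of variation of 0.394, calls near the threshold moved between fits. The genes of the 8 that were called kept their direction in all alternatives run, and the cause of the lost or gained calls below was not tested. HFD against CD in WT called 0 of the 8 genes and 0 of the 71 listed genes with only the groups compared, against 3 and 16. In that fit 0 of all genes were called, against 14.8%. The interaction called 3 of the 8 (Hmgcs1, Insig1 and Abcg1) by DESeq2 and with WT CD replicates 2 and 3, against 1. Those 2 fits called 12.9% and 18.3% of all genes for the interaction, against 3.91% in the main fit. Between genotypes on CD, Srebf2 was not called in the protein-coding table (0.83) or with only the groups compared (1.01), and Insig1 not with library size only (-0.69), over all 12 libraries (-0.43), with WT CD replicates 1 and 3 (-0.27) or with 2 and 3 (-0.16). Abcg1 on HFD was not called with no filter (1.07), over all 12 libraries (1.04), with WT CD replicates 1 and 3 (1.04) or 2 and 3 (1.04), or with only the groups compared (1.05). Apoe was called on HFD by DESeq2 (1.05), with at least 10 counts in every library (1.03) and with only the groups compared (1.03), and on CD with WT CD replicates 2 and 3 (1.04). Abca1 was called in WT on HFD by DESeq2 (0.57) and with WT CD replicates 2 and 3 (0.999). Of the 71 listed genes HoipA-KO against WT on HFD called 20 with at least 10 counts in every library (18.6% of all genes were called there), 5 over all 12 libraries (2.78%), 7 with WT CD replicates 1 and 3 (3.62%) and 30 by DESeq2 (24.2%), against 11 (11.8%). HFD against CD in WT called 32 with WT CD replicates 2 and 3 (36.3% of all genes) and 25 by DESeq2 (24.7%), against 16 (14.8%). On CD the listed genes gave 34 calls (37.7%), 28 over all 12 libraries (34.7%) and 39 by DESeq2 (44.3%).

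Values near 0 or resting on 1 WT CD library changed sign. Abca1 on CD, at 0.04, was at -0.0029 with no filter, -0.0085 with at least 10 counts in every library and -0.088 in the protein-coding table. With WT CD replicates 1 and 3, Acat2 in WT on HFD was at 0.032, Ch25h at 1.21 on CD and 1.79 in WT on HFD, Lrp8 on CD at -1.03 and Abcg8 on CD at -1.61. With WT CD replicates 2 and 3 the last 2 were at -1.02 and -1.58, and over all 12 libraries at -0.49 and -1.06.

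Without 1 library at a time, calls among the 8 genes ran from 2 to 4 between genotypes on CD and on HFD, from 1 to 4 for HFD in WT, 0 to 0 for HFD in HoipA-KO and 0 to 2 for the interaction, and calls among the 71 from 23 to 32, 5 to 22 and 9 to 29 for the first 3. Calls over all genes also moved. Where such fits kept at least 2 libraries per group, between genotypes they ran from 5082 to 7041 on CD, against 6947 in the main fit. On HFD they ran from 279 to 2601, against 2179, and for HFD in WT from 1045 to 2805, against 2731. For the interaction they ran from 1 to 999, against 721. The ranges among the 8 and the 71 genes cannot be read apart from these. Over all the fits without 1 library, log2 values of Sqle on HFD ran from -0.29 to 0.67 and of Abca1 on CD from -0.16 to 0.28. Apoe on CD ran from -0.055 to 0.98, and Ch25h from -6.02 to 0.94 on CD and -5.45 to 1.48 in WT on HFD.

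Libraries of different groups share replicate numbers, but deviations from the group means correlated at -0.48 to 0.37 in the 15 pairs of the same number, with 5 over 0.1, and at -0.42 to 0.48 in the 30 other pairs, with 10 over 0.1. Of 11 libraries 5 correlated best with a library of their own number. Deviations within a group sum to 0, so these r values are bound to each other. They cannot tell whether libraries of the same number belong together. The labels state that each library is a pool of its own, and the number was not taken as a pairing in the main fit. With the number as a replicate block, 4 of the 8 genes were called on CD (Srebf2, Sqle, Abcg1 and Soat1), 4 on HFD (Insig1, Hmgcs1, Apoe and Abcg1), 2 in WT on HFD (Insig1 and Hmgcs1), 0 in HoipA-KO and 1 for the interaction, so that Insig1 on CD and Abcg1 in WT on HFD lost their calls and Sqle on CD and Apoe on HFD gained them. The listed genes gave 30, 16 and 13 calls in the first 3, where 32%, 13.9% and 8.15% of all genes were called. For the interaction the block fit called 2.05% of all genes.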
